A study of Mus musculus with 6 samples.

Results

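The motile cilia and axoneme genes examined here are the genes that build the beating cilium and switch on its formation, and 55 of the 13170 genes in the deposited expression table belong to them. They were chosen by name: 48 have a symbol that starts with Cfap, Dnah, Dnai, Dnal, Rsph, Tekt, Spag or Drc, and Foxj1, Rfx2, Rfx3, Ttc21a, Dynlrb2, Ccdc153 and Pifo were added one by one. The set was proposed with the difference between the groups already known, so every difference between the groups given for these genes is a description and carries no p-value of its own. Poly(A) RNA of brain tissue from adult male C57 mice was sequenced from a group of high sexual motivation (3 libraries) and a group of low sexual motivation (3 libraries), with no treatment, allele or age in the labels. The series title places the tissue in the medial amygdala, the protocol for RNA extraction names it PrL, and the sources used here state neither how motivation was scored nor whether a library stands for 1 animal, so the spread between libraries may be technical in part.

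Motile cilia carry a microtubule skeleton, the axoneme, whose outer doublets are pushed past each other by rows of dynein motors. Radial spokes, a central apparatus and the nexin-dynein regulatory complex coordinate those motors, and tektins and other inner proteins line the doublets. In the brain, motile cilia stand in tufts on the ependymal cells that line the ventricles, while neurons and astrocytes bear a single immotile primary cilium. The epithelium of the choroid plexus also bears tufts of cilia. The transcription factor FOXJ1, with factors of the RFX family, turns on the genes of the motile axoneme.

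Values are FPKM, read fragments scaled to transcript length and to the fragments mapped in a library, as the authors deposited them. The table holds no value at 0 and no gene with a mean under 0.5 FPKM over the 6 libraries, so a gene that is not listed may be expressed below that level, and absolute depth is unknown. Relative to high library 1, depth lay between 0.956 (low library 3) and 1.33 (high library 2), estimated from 1428 genes of low FPKM. The neuronal markers Snap25 (225 to 264 FPKM) and Syt1 (117 to 142 FPKM) were abundant in all 6 libraries. Of the 6 markers of ependymal cells and motile cilia, 5 were listed, and their summed FPKM was 6.45 to 7.74 in the high libraries and 14.0 to 23.8 in the low libraries; 4 of the 5 are themselves in the set (Foxj1, Dynlrb2, Tekt1 and Ccdc153). The 5 markers of testis germ cells, which share axoneme genes through the sperm tail, were not among the genes above that level.

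In the high motivation group 41 of the 55 genes had a lower mean and 14 a higher one, where 49.8% of all genes listed were lower, and the large differences sat in a subset of them. In 21 genes every high library lay below every low library, in 4 every high library lay above every low library, and in 30 the groups overlapped. Over all genes listed, 7.59% and 7.17% had groups that did not overlap in these directions. Among the 48 genes found by prefix alone the first count was 14, or 29.2%, and all 7 genes that were added by name were in it. In mean FPKM, 11 genes were at least 2-fold lower in the high group and 0 were at least 2-fold higher, where 0.737% and 0.456% of all genes listed differed so. These counts include 4 genes, Cfap52, Cfap61, Dnali1 and Ttc21a, whose mean reached 0.5 FPKM in the low group only and which were listed through that group, and 1 gene, Cfap99, listed through the high group. With RNA from whole tissue, fewer cells of a type and less RNA per cell cannot be told apart.

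The groups were compared across the whole table with limma on log2(FPKM + 1), over the 12026 genes with a mean of at least 1 FPKM, and log2 differences are given as high minus low on that scale. Of the 55 genes, 44 entered this fit, 33 of them lower and 11 higher, with 18 of them lower and 3 higher without overlap of the groups (7.61% and 7.33% of all genes tested), and with a median log2 difference of −0.12 where the median over all tested genes was 0.0002. Of all tested genes, 49.9% were lower. At a Benjamini-Hochberg adjusted p under 0.05, limma called 0 of the 44 genes and 0 of the 12026, or 0%. At an unadjusted p under 0.05 there were 17 of the 44 lower and 2 higher, against 4.27% and 4.12% of all genes tested, or 8.39% in either direction. Of the 44, 7 reached 1 FPKM in the low group only, so their place in the fit rests on that group. They were Dynlrb2, Dnali1, Ttc21a, Pifo, Cfap44, Cfap206 and Cfap126. These shares describe the set and test nothing, because the same contrast was known when it was chosen. For the 11 genes below 1 FPKM, log2 differences are those of a fit without the filter, over all 13170 genes.

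**Figure D1:**
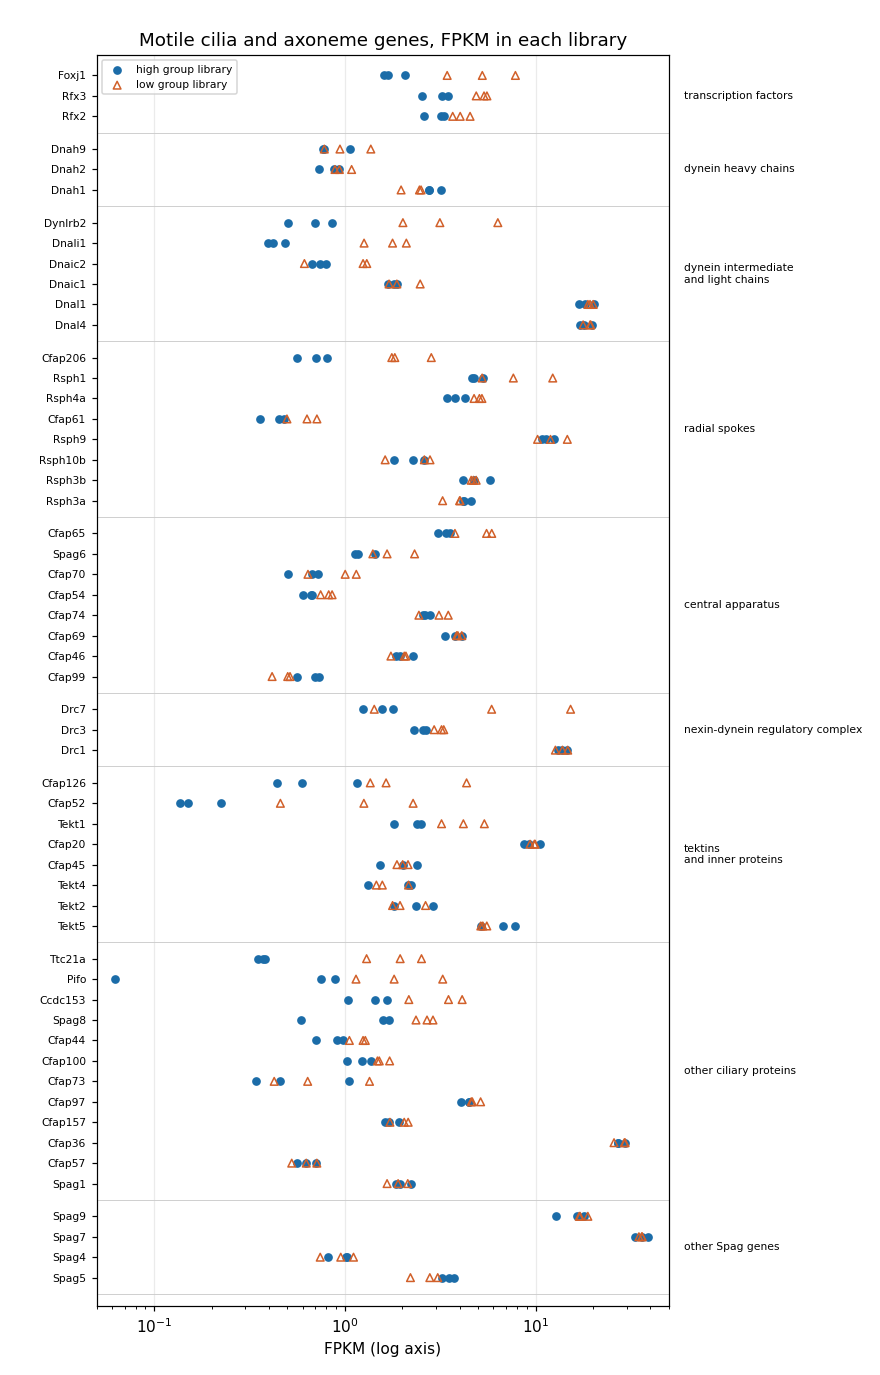
FPKM of each of the 55 genes in the 3 high libraries (filled circles) and the 3 low libraries (open triangles), on a log axis, grouped by the role of the protein. Foxj1, Dynlrb2, Dnali1, Cfap206 and Ttc21a have circles and triangles well apart, while Dnal1, Dnal4, Drc1, Cfap36 and Spag7 overlap at the right of the plot.

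All 3 transcription factors were lower in every high library, where 7.59% of all genes listed were lower without overlap. All 3 were added by name to a set proposed with the contrast known. Foxj1, the regulator that commits a cell to motile cilia, had 1.68, 2.07 and 1.60 FPKM in high libraries 1 to 3 and 5.26, 3.44 and 7.84 FPKM in low libraries 1 to 3. The highest high library thus lay below the lowest low library, and the group means were 1.78 ± 0.247 and 5.51 ± 2.21 FPKM (SD, n = 3 each), a log2 difference of −1.17 (SE 0.221). Rfx3, which drives ciliary genes together with FOXJ1, had 2.55, 3.47 and 3.23 FPKM in the high group and 4.89, 5.37 and 5.56 FPKM in the low group. Its low libraries lay close together, with a log2 difference of −0.62 (SE 0.102). Rfx2, a close relative with an overlapping role, had 3.18, 2.59 and 3.30 FPKM against 4.03, 3.68 and 4.54 FPKM, a log2 difference of −0.34 (SE 0.102). The other RFX genes, which the rule left out, did not follow this order. Of Rfx1, Rfx4, Rfx5, Rfx7, Rfxank and Rfxap, 1 was lower and 5 were higher. In all 6 the groups overlapped, and their median log2 difference was 0.04. Rfx2 and Rfx3 were picked with the contrast known, so this split within the family tests nothing. Rfx4, which is expressed in the astrocyte and ependymal lineage, had 3.81, 3.11 and 3.52 FPKM against 3.66, 3.46 and 2.74 FPKM. In GRCm38, Foxj1 lies at chr11:116330704-116335399, Rfx3 at chr19:27761721-28011166 and Rfx2 at chr17:56775897-56831013, each on the minus strand.

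RFX proteins bind the X-box, a pair of half-sites in inverted order, and promoters of the set were searched for it because 2 of its transcription factors are RFX proteins. RefSeq windows (GRCm38.p6, from 250 bases before to 50 bases after each start) were matched for 45 of the 55 genes. The 100 bases before the start are shown for 3 genes that were lower in every high library (Dynlrb2, Pifo and Cfap44) and 3 whose groups overlapped (Dnaic2, Cfap45 and Tekt2), because genes of both kinds carry the pair, all with a pair of half-sites in capitals.
Dynlrb2: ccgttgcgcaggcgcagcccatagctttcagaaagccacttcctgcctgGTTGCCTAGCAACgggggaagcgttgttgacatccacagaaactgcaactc
Pifo: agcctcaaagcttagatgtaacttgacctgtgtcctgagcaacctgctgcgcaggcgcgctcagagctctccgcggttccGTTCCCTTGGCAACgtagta
Cfap44: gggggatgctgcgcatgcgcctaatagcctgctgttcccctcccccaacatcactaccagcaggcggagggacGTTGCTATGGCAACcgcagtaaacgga
Dnaic2: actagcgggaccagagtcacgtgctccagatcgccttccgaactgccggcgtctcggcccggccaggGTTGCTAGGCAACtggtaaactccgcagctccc
Cfap45: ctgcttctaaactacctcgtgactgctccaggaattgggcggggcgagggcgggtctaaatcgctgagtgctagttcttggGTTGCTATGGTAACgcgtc
Tekt2: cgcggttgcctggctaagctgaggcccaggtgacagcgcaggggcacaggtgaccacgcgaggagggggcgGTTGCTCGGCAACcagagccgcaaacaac
The windows lie at chr8:116504915-116505014 on the plus strand (Dynlrb2), chr3:106001498-106001597 on the minus strand (Pifo) and chr16:44394699-44394798 on the plus strand (Cfap44). Those of the other 3 genes lie at chr11:114727319-114727418 on the plus strand (Dnaic2), chr1:172521030-172521129 on the plus strand (Cfap45) and chr4:126325689-126325788 on the minus strand (Tekt2). Of the 2 listed starts of Pifo the more downstream one is used, and of the 3 of Tekt2 the most upstream one; the pair was not found in the other window of Pifo or in the most downstream window of Tekt2. Capitals mark GTTNCC followed after 0 to 3 bases by NGNAAC, or its reverse complement arrangement, GTTNCN followed after 0 to 3 bases by GGNAAC, where N is any base.

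This pair was present in 13 of 45 genes, or 28.9%, against 2.42% of the 10263 genes of the table with a window and 2.14% of all 27025 genes with one. The pattern was widened to this form after the windows had been read, and in the stricter form, GTTNCC followed by GGNAAC, it was present in Pifo alone, 2.22% of the 45 genes against 1.07% of the listed genes. The single half-site GTTGCC, searched on both strands and part of several pairs, was present in 19 genes, or 42.2%, against 15.2% of the listed genes. In the form GTTNCC, with any base in place of the G, the half-site was present in 77.8% against 51.8%. The forkhead core GTAAACA, on both strands, was present in 1 gene, Cfap20, or 2.22%, against 2.96% of the listed genes. A match is a run of letters and not a measured binding site. The differences between the groups covered overlapping ranges in genes with and without the pair: 10 of the 13 with it were lower in the high group, with log2 differences from −1.43 to 0.10 and a median of −0.17, and 22 of the 32 without it, from −1.36 to 0.29 with a median of −0.08.

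Dynein chains split between a pair that was much lower in the high group and a remainder that was not. Both genes of the pair, Dynlrb2 and Dnali1, reached a mean of 1 FPKM in the low group only and entered the fit through it. Dynlrb2, a roadblock light chain found with ciliary dynein, had 0.504, 0.852 and 0.699 FPKM in the high group and 3.15, 2.02 and 6.34 FPKM in the low group. Every low library exceeded every high one, low library 3 most, and the ratio of the high to the low mean was 0.179 (log2 difference −1.43, SE 0.285). Dnali1, a light chain of the inner dynein arms, had 0.394, 0.419 and 0.486 FPKM against 1.78, 1.26 and 2.10 FPKM (log2 difference −0.91, SE 0.133), again with no overlap. Dnal1 and Dnal4, light chains of the outer arms, were far more abundant in this tissue, and their groups overlapped. Dnal1 had 16.9, 20.2 and 18.2 FPKM in the high group and 20.1, 19.3 and 18.8 FPKM in the low group, and Dnal4 had means of 18.2 ± 1.34 and 18.9 ± 0.945 FPKM (SD, n = 3). The outer arm intermediate chains Dnaic1 (log2 difference −0.10) and Dnaic2 (−0.23) also overlapped. For Dnaic2, low library 2 stood at 0.614 FPKM, below every high library, and low libraries 1 and 3 at 1.25 and 1.30 FPKM, above them.

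Heavy chains, the motors themselves, showed no difference of the size seen in Dynlrb2 and Dnali1. Only Dnah1, Dnah2 and Dnah9 were listed. Dnah1, of the inner arms, was higher in every high library, at 2.76, 2.78 and 3.18 FPKM against 2.46, 2.51 and 1.97 FPKM (log2 difference 0.24, SE 0.0983). Dnah9, of the outer arms, had 0.778, 1.06 and 0.767 FPKM against 0.943, 0.780 and 1.37 FPKM. Dnah2, of the inner arms, had 0.880, 0.731 and 0.934 FPKM against 0.936, 0.888 and 1.08 FPKM. Both overlapped, at levels under that of Dnah1. Exons of all 3 heavy chain genes overlap a gene on the opposite strand in GENCODE, and the sources used here do not state whether counting used strand.

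Among radial spoke genes, Cfap206 and Rsph4a differed without overlap, and the spoke head gene Rsph1 differed through 2 libraries. Cfap206, whose counterpart in the ciliate Tetrahymena anchors a spoke to the doublet, had 0.564, 0.805 and 0.704 FPKM in the high group and 1.76, 1.83 and 2.84 FPKM in the low group (log2 difference −0.88, SE 0.145). Rsph4a, a spoke head protein, had 3.80, 3.42 and 4.26 FPKM against 5.08, 4.76 and 5.23 FPKM (log2 difference −0.32, SE 0.0865). Both were thus lower in every high library, and the ratio of the high to the low mean was 0.322 for Cfap206 and 0.761 for Rsph4a. Rsph1 had 4.76, 5.29 and 4.62 FPKM in the high libraries but 7.65, 5.25 and 12.3 FPKM in the low libraries, so that low library 2 lay among the high libraries. Rsph9, another spoke head protein and the most abundant of the group, had means of 11.6 ± 0.892 and 12.3 ± 2.23 FPKM (SD, n = 3) and overlapped, as did Rsph10b. Cfap61, of a spoke-associated complex, was low throughout and did not overlap (0.357 to 0.482 FPKM against 0.497 to 0.713 FPKM). Rsph3a, a spoke stalk gene, was higher in every high library, by a log2 difference of 0.16, and Rsph3b overlapped at 4.17, 5.77 and 4.73 FPKM against 4.88, 4.72 and 4.60 FPKM, but these are near copies of each other between which reads can be split, so both values are uncertain.

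Differences in the central apparatus were smaller, with 2 of 8 genes lower without overlap, 1 higher without overlap and a median log2 difference of −0.13. Over all genes listed, 7.59% were lower and 7.17% higher without overlap. Cfap65 had 3.07, 3.57 and 3.38 FPKM in the high group and 5.54, 3.78 and 5.89 FPKM in the low group (log2 difference −0.47, SE 0.139), and its low library 2 lay just above the highest high library. Cfap54 had means of 0.644 ± 0.0386 and 0.809 ± 0.0567 FPKM (SD, n = 3) without overlap. Cfap69 stood at 3.80, 3.36 and 4.10 FPKM against 3.91, 4.11 and 3.86 FPKM, and Cfap74 at 2.56, 2.79 and 2.62 FPKM against 3.12, 2.44 and 3.49 FPKM. Spag6, a central pair protein with a close paralog that could share its reads, overlapped at 1.45, 1.18 and 1.14 FPKM against 1.67, 1.40 and 2.32 FPKM (log2 difference −0.30), as did Cfap69, Cfap74, Cfap70 and Cfap46. Cfap99 ran the other way at a low level, from 0.561 to 0.732 FPKM in the high group and from 0.415 to 0.516 FPKM in the low group.

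The 3 subunits of the nexin-dynein regulatory complex found by the Drc prefix, which in the cilium act in 1 assembly, showed 3 different patterns. Gas8, a further listed subunit outside the naming rule, is given below. Drc7 had 1.24, 1.78 and 1.56 FPKM in the high group and 5.89, 1.43 and 15.3 FPKM in the low group. Its mean difference (log2 −1.36, SE 0.570) therefore came from low libraries 1 and 3, and against low library 2 alone the log2 difference was 0.05. Drc3 had 2.31, 2.68 and 2.56 FPKM against 3.21, 2.94 and 3.30 FPKM, a small difference without overlap (log2 −0.24, SE 0.0836). Drc1, a structural subunit of the complex, was at 13.1, 14.6 and 13.8 FPKM against 13.8, 14.7 and 12.7 FPKM, with means of 13.8 ± 0.796 and 13.8 ± 1.02 FPKM (SD, n = 3).

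**Figure D2:**
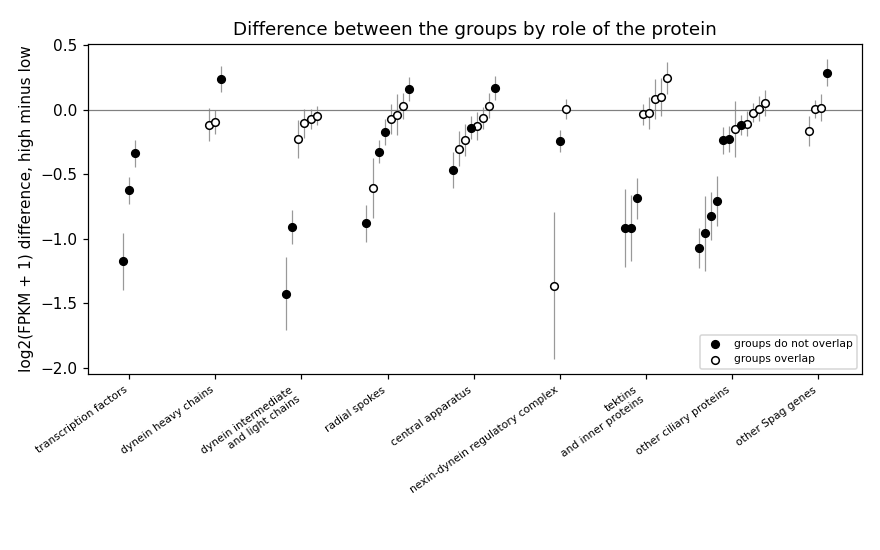
Difference between the groups in log2(FPKM + 1), high minus low, with the standard error from limma, for the 55 genes by role; filled points are genes whose groups did not overlap. The 3 transcription factors lie below 0, from −0.34 to −1.17, while each of the other roles holds genes near 0.

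In the group of tektins and inner proteins of the doublet, 3 of 8 genes were lower without overlap, against 7.59% of all genes listed. Tekt1, a filament protein of the doublet wall, had 1.81, 2.401 and 2.51 FPKM in the high group and 4.18, 3.21 and 5.39 FPKM in the low group (log2 difference −0.68, SE 0.158). Cfap52, an inner protein, had 0.151, 0.136 and 0.223 FPKM against 1.26, 0.459 and 2.28 FPKM, a ratio of high to low means of 0.128 in a gene listed through the low group, with low library 2 nearer to the high libraries than the other low libraries were. Cfap126, also called Flattop, had 0.593, 1.16 and 0.438 FPKM against 1.65, 1.36 and 4.35 FPKM, so high library 2 came close to low library 2. The other tektins did not share this order. Tekt5 had 7.83, 5.18 and 6.74 FPKM in the high libraries against 5.29, 5.55 and 5.16 FPKM in the low libraries, and Tekt2, Tekt4 and Tekt5 were higher on average in the high group by log2 differences of 0.10, 0.08 and 0.24, each with overlap. Cfap20 (9.24, 10.5 and 8.71 FPKM against 9.95, 9.86 and 9.36 FPKM) overlapped, as did Cfap45 (means 1.98 ± 0.442 and 2.01 ± 0.134 FPKM, SD, n = 3).

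The remaining ciliary genes held 7 of 12 that were lower without overlap, against 7.59% of all genes listed. Ttc21a, among the 7, was listed through the low group. Ttc21a, a paralog of a subunit of the retrograde intraflagellar transport complex, had 0.351, 0.381 and 0.373 FPKM in the high group and 1.95, 1.30 and 2.52 FPKM in the low group. The SD of the high libraries was 0.0153 FPKM, no low library came near them, and the ratio of the high to the low mean was 0.191 (log2 difference −1.07, SE 0.156). Pifo, a protein of the base of the primary cilium, had 0.0622, 0.887 and 0.747 FPKM against 1.81, 1.14 and 3.26 FPKM, with high library 1 far below all others. Ccdc153, a coiled-coil protein and marker of ependymal cells, had 1.45, 1.03 and 1.65 FPKM against 4.12, 3.496 and 2.17 FPKM, and here low library 3 was the lowest of the low libraries. Spag8 (log2 difference −0.71), Cfap44 (−0.24), Cfap100 (−0.22) and Cfap97 (−0.12) completed the 7, Cfap97 with 4.49, 4.08 and 4.50 FPKM against 4.60, 5.15 and 4.66 FPKM. Cfap36, the most abundant of the group, had 26.9, 29.3 and 26.9 FPKM against 29.5, 29.2 and 25.8 FPKM and overlapped, as did Cfap57, Cfap73, Cfap157 and Spag1, a factor for the assembly of dynein arms.

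The prefix Spag also takes genes with roles outside the axoneme. Spag5, which encodes astrin of the mitotic spindle, was higher in every high library (3.24, 3.499 and 3.73 FPKM against 2.79, 3.07 and 2.21 FPKM; log2 difference 0.29, SE 0.106). Spag9, a scaffold of kinase signalling and vesicle transport, had 16.5, 12.9 and 17.9 FPKM against 16.9, 18.8 and 17.1 FPKM. Spag7, the most abundant of the 55 genes, had 36.2, 38.7 and 33.2 FPKM against 34.9, 36.2 and 36.1 FPKM. Both overlapped, as did Spag4, of the nuclear envelope. Without these 4 genes, 40 of 51 were lower and 21 were lower without overlap, against 49.8% and 7.59% of all genes listed.

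Large differences were found among genes of low FPKM and not among those of high FPKM, though most genes of low FPKM did not differ by 2-fold either. The 7 genes with a mean of at least 10 FPKM, Spag7, Cfap36, Dnal1, Dnal4, Spag9, Drc1 and Rsph9, had log2 differences of at most 0.16 in size, and all of them overlapped between the groups. The 11 genes that were at least 2-fold lower in the high group had means of at most 4.53 FPKM, with a median of 1.59 FPKM, where the median was 2.26 over the 55 genes and 6.27 over all genes listed. Of the 11 genes with a mean under 1 FPKM, 1 (Cfap52) differed by 2-fold or more. When only genes with a mean of at least 5 FPKM were kept, 7 of 10 genes were lower and 0 were lower without overlap. The 10 include Spag7 and Spag9, and the shares over all genes at that filter are not given. Low FPKM rests on few reads, and standard errors of the log2 difference had a median of 0.111 in the 44 genes and 0.0900 over all tested genes.

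**Figure D3:**
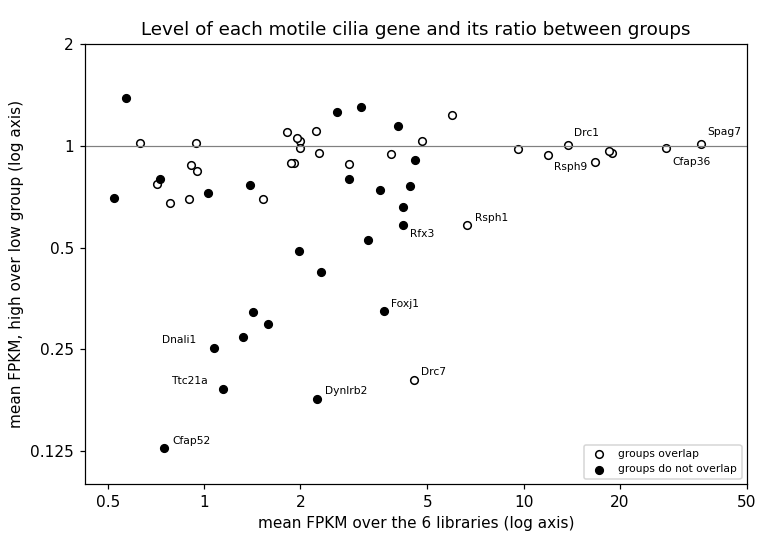
Mean FPKM over the 6 libraries against the ratio of the high to the low group mean, both on log axes, 1 point per gene; filled points are genes whose groups did not overlap. Ratios below 0.5 occur among genes with means of at most 4.53 FPKM, and the 7 genes above 10 FPKM lie near 1.

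The low libraries were not alike. Divided by the high group's mean, the FPKM of the 55 genes had a median of 1.17, 1.06 and 1.28 in low libraries 1 to 3. Among the 21 genes that were lower without overlap, where every low library is above the high ones by their selection, low library 3 was the highest of all libraries in 15, and low library 2 was the lowest of the low libraries in 17. In these 21 genes the median ratio to the high group's mean was 1.865, 1.741 and 1.803 in low libraries 1 to 3. These medians were close together and highest in low library 1. Over all 55 genes, low library 1 exceeded every high library in 30, or 54.5%, low library 2 in 25, or 45.5%, and low library 3 in 35, or 63.6%. Over all genes listed these shares were 26.0%, 24.0% and 25.7%. In 7 genes, Spag6, Cfap70, Cfap74, Dnah2, Dnaic2, Drc7 and Rsph1, low libraries 1 and 3 exceeded every high library and low library 2 did not.

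Low libraries 1 and 3 also held more transcripts of the choroid plexus, whose epithelium is itself multiciliated. All 7 defining markers (Ttr, Kl, Folr1, Kcne2, Kcnj13, Clic6 and Otx2) were lower on average in the high group, none was at 0 in any library, and 26 of 27 genes on a longer list were lower too. Their summed FPKM was 39.3 to 109 in the high libraries and 1327, 78.9 and 4141 in low libraries 1 to 3, so that low library 2 lay within the range of the high libraries. Otx2, the transcription factor of that epithelium, had 0.0664 to 0.187 FPKM in the high group and 2.11, 0.173 and 7.48 FPKM in the low group. When low library 2 alone stood for its group, 32 of the 44 genes were lower, their median log2 difference was −0.09, and in 22 every high library lay below low library 2. A single low library meets this more easily than 3 do. Over all genes listed, low library 2 exceeded every high library in 24.0%, and all 3 low libraries did in 7.59%. The share of all genes that were lower when low library 2 stood alone is not given. The log2 difference then went from −1.17 to −0.68 for Foxj1, from −1.43 to −0.85 for Dynlrb2, from −1.07 to −0.75 for Ttc21a and from −0.91 to −0.66 for Dnali1. It went from −0.92 to −0.47 for Cfap126, from −0.68 to −0.38 for Tekt1, from −0.47 to −0.14 for Cfap65 and from −0.61 to −0.09 for Rsph1. For Cfap206 it was −0.88 and then −0.74, and for Rfx3 −0.62 and then −0.65. Low library 2 also deviated from the mean of the 6 libraries along transcript GC content, with a Spearman rho of −0.487 across 11924 genes. The rho was −0.223 and 0.0412 in low libraries 1 and 3, and 0.0978, 0.423 and −0.0959 in high libraries 1 to 3. The log2 differences without low libraries 1 and 3 rest on a single low library, and the part of the choroid plexus in the differences was not tested. The 4 markers of red blood cells summed to 250 and 223 FPKM in low libraries 1 and 3 (against 113 to 184 in the high libraries and 131 in low library 2), and their part was not tested either.

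**Figure D4:**
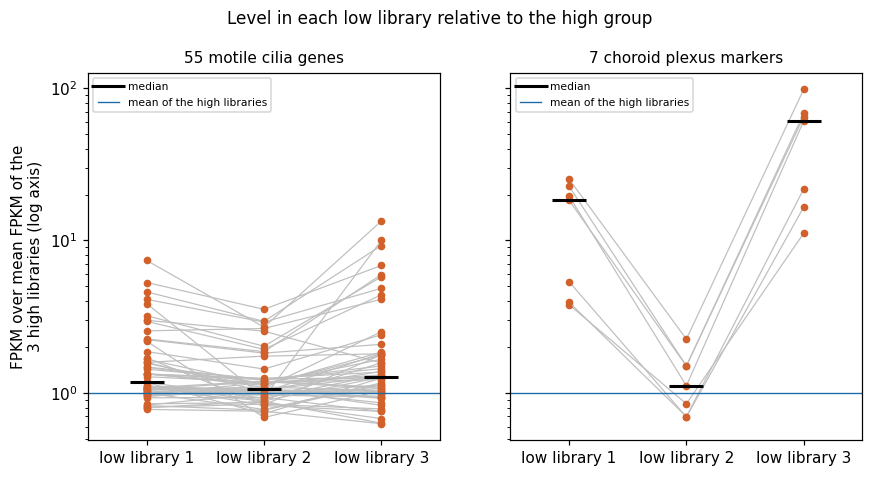
FPKM of each low library divided by the mean of the 3 high libraries, on a log axis, for the 55 motile cilia genes (left) and for the 7 choroid plexus markers (right); grey lines join the values of a gene and black bars are medians. The medians are 1.17, 1.06 and 1.28 for the motile cilia genes and 18.3, 1.11 and 60.9 for the choroid plexus markers in low libraries 1 to 3, so both are lowest in low library 2 and highest in low library 3.

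Motile cilia genes whose symbols fall outside the naming rule were also mostly lower in the high group. Of 60 such genes for dynein assembly, docking of dynein arms and other axonemal parts, 35 were listed, 31 lower in the high group and 4 higher, with 14 (40.0%, against 7.59% of all genes listed) lower without overlap and a median log2 difference of −0.25. Of the 25 tested, limma called 0 and had 10 at an unadjusted p under 0.05, against 8.39% of all genes tested. Mlf1 (0.408, 0.153 and 0.339 FPKM against 1.23, 0.717 and 2.18 FPKM) and Ak7, an adenylate kinase of the cilium (0.300, 0.562 and 0.154 FPKM against 1.56, 1.11 and 1.22 FPKM), had the largest differences, and both were listed through the low group only. Tppp3 (log2 difference 0.19) and Gas8, a further subunit of the nexin-dynein regulatory complex (0.18), were the most abundant of them, higher on average in the high group and overlapping. Of 11 genes that act upstream in the formation of many basal bodies, 4 were listed, 3 lower and 1 higher, with log2 differences from −0.39 to 0.11. E2f4 (0.00) and E2f5 (−0.24) overlapped. Ccno, the 1 gene without overlap, had 0.521, 0.309 and 0.431 FPKM in the high group and 0.714, 0.877 and 0.978 FPKM in the low group. Its mean in the high group was 0.420 FPKM, so Ccno was listed through the low group only. This list, like those that follow, was drawn up with results of these data known.

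Genes that motile and primary cilia share, and those of the cytoplasmic motor, had median differences near 0. Of 37 listed genes of intraflagellar transport and the BBSome, which serve both kinds of cilia, 23 were lower and 14 higher, with a median log2 difference of −0.02. In 8 of them (21.6%, against 7.59% of all genes listed) the high group was lower without overlap and in 0 it was higher without overlap; Ift74 had the largest difference, −0.27. Of 14 proteins of the primary cilium, 3 were lower and 11 were higher (median 0.04), with Adcy3, the adenylyl cyclase of neuronal cilia, higher in every high library at 11.2, 11.2 and 10.1 FPKM against 9.65, 8.88 and 9.67 FPKM. Cytoplasmic dynein and dynactin had 3 of 15 lower and 12 higher (median 0.02). Without overlap, 2 of the 15 were lower and 1 higher, and 1 of the 14 primary cilium genes was lower and 2 higher. Over all genes listed these shares were 7.59% and 7.17%. Dynlt3 had the largest difference of the 15 (−0.30, lower in every high library), and Dynll2 was higher in every high library (0.16). Dynlrb1, the general counterpart of Dynlrb2, had 156, 143 and 160 FPKM in the high group and 141, 138 and 159 FPKM in the low group and overlapped. In these 3 lists, with 37, 12 and 15 genes tested, limma called 0 genes. At an unadjusted p under 0.05 there were 2, 2 and 1, against 8.39% of all genes tested. Of 10 listed genes on a list of ependymal markers meant to lie outside the axoneme, 5 were lower and 5 higher. Of them, 3 and 2 were without overlap, against 7.59% and 7.17% of all genes listed. Dynlrb2, a gene of the set and a dynein light chain, is among the 3. Nnat (250, 268 and 286 FPKM against 227, 219 and 229 FPKM) and S100b (62.2, 69.9 and 73.9 FPKM against 54.9, 59.9 and 58.5 FPKM), the most abundant of them, were higher in every high library. Both stood far above Foxj1 (1.60 to 7.84 FPKM), and which cells their RNA came from was not tested. Rarres2, also counted above as an ependymal marker, had 1.00, 0.971 and 1.27 FPKM against 1.68, 1.86 and 2.07 FPKM, with low library 1 the lowest of the low libraries.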

How the data were processed

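The authors deposited 1 table of FPKM for the 6 libraries, together with a log2 fold change and an unadjusted p-value per gene; those deposited log2 and p-value columns were not used here. The tools were fastp, HISAT2 and StringTie and the build GRCm38, per the submitters' processing notes; the sources used here give no version, annotation or strand setting. Columns were assigned to libraries by title and groups by the group label. FPKM carry no counts, so no count model was fitted. On the log2(FPKM + 1) scale, the high and low groups were set against each other by limma 3.58.1 (R 4.3.3) over genes whose mean reached 1 FPKM (variance trend, 2-sided, Benjamini-Hochberg adjustment over all 12026 tested genes), after the fit was tested on simulated data. SDs are over the 3 libraries of a group. Gene positions and exon overlaps come from GENCODE M21 (GRCm38) and promoter windows from RefSeq (GRCm38.p6). Exons of 21 of the 55 genes overlap another gene.

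The genes and lists were chosen with earlier results of these data known. Role groups and named genes follow a rule: all transcription factors, Dynlrb2 and Tekt1, the 3 most abundant genes per role and the 2 with the largest difference per role by library or by mean and SD, others by range, difference or count; some further genes were named after their values were seen. Alternatives were other pseudocounts, filters and scalings, a replicate block, array weights, no variance trend, a spline on transcript GC content and length, and libraries left out; subsets of the 55 genes were added after seeing the data. Python 3.11.15 with pandas 2.3.3, numpy 2.4.6 and matplotlib 3.10.9 was used for the rest.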

Additional observations from a re-analysis of the deposited data

How the results depend on the processing

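Of the 44 genes in the fit, 33 were lower in the high group, 18 of them without overlap, with a median log2 difference of −0.12, and limma called 0 of all tested genes under each of the 17 alternatives. Leaving out each library in turn gave 31 to 38 lower, 18 to 22 without overlap and medians of −0.19 to −0.11. With a library left out, the count without overlap can only stay or rise, and its share over all genes is not given. Keeping genes with a mean of at least 5 FPKM left 10, since most of the 44 fall below that level. Of the 10, 7 were lower and 0 without overlap, and the shares over all genes at that filter are not given. Among the genes found by prefix only, 26 of 37 were lower, 11 without overlap, against 49.9% and 7.61% of all genes tested. Their median log2 difference was −0.07, and that of the 7 genes added by name was −0.96. Among the 28 tested genes whose exons overlap no other gene, the median was −0.28. With the replicate number as a block, 33 were lower, the median was −0.12 and limma called 0 genes; same-numbered libraries of the groups did not deviate together (correlations −0.0939, −0.206 and −0.156), no high library correlated best with its own number, and the labels name no shared batch, so the numbers were not taken as pairs. The difference between the groups followed transcript GC content over 11924 genes (Spearman rho 0.382, across genes, which are not replicates); once a spline on both GC content and transcript length was taken out, 32 of the 44 were lower, with a median of −0.12. Of 34 named genes, 15 of the 31 in the fit moved by more than their spread between libraries with low libraries 1 and 3 left out, and 9 with a pseudocount of 0.1, which widened the differences of low genes (Ttc21a −2.07, Dynlrb2 −2.20). Drc1, Rsph3b, Spag7, Cfap36, Cfap69, Cfap20, Rsph9, Dnal4, Cfap74 and Drc7 changed sign under at least 1 alternative. The low FPKM of the genes that differed most limits the precision of their values.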
